A study of Mus musculus and Homo sapiens with 14 samples.

Results

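The nuclear genes for the respiratory chain and ATP synthase were followed through 4 comparisons in acute myeloid leukemia cells. A gene belonged to the set if its symbol, in either case, began with Nduf, Uqcr, Atp5 or Cox4 to Cox8, or was Sdha, Sdhb, Sdhc, Sdhd or Cyc1. This rule uses names only, and it found 93 of the 20682 genes in the mouse tables and 97 of the 19166 in the human table. In mouse, 36 of them encode subunits of complex I, 4 of complex II, 9 of complex III, 20 of complex IV and 15 of complex V, and 7 are the Ndufaf assembly factors of complex I. The remaining 2, Atp5s and Atp5sl, have ATP synthase symbols but were placed in no complex, and Ndufa4 and Ndufa4l2 were counted with complex IV, where the Ndufa4 protein is found. The human table adds genes such as UQCRHL and ATP5L2 and the read-through transcripts NDUFC2-KCTD14 and ATP5J2-PTCD1. A member was tested where its values in the 4 libraries of a table averaged 10 or more, which left 87 of 93 in each mouse table and 88 of 97 in the human table.

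The respiratory chain passes electrons from NADH (complex I) and succinate (complex II) through coenzyme Q, complex III and cytochrome c to oxygen (complex IV). Complexes I, III and IV move protons across the inner mitochondrial membrane, and complex V, the ATP synthase, lets them return through a rotating ring and makes ATP. A few core subunits are encoded by mitochondrial DNA, but most subunits, and all of complex II, come from nuclear genes such as these. Acute myeloid leukemia cells are known to lean on oxidative phosphorylation.

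MOLM-13, a human leukemia line with an MLL-AF9 fusion, was labelled as holding an empty vector and was given 250 nM YKL-05-099, which inhibits salt-inducible kinases, or 0.1% DMSO for 2 hours. RN2, mouse leukemia cells that carry MLL-AF9 and mutant Nras, was given 350 nM YKL-05-099 or 0.1% DMSO for 2 hours, and the titles of its libraries also carry the word empty. RN2c, the RN2 leukemia with Cas9, was collected 2 days after lentiviral infection with a guide RNA against Sik3 (guides e1 and e3, 1 library each), against Mef2c (guides 1 and 2, 1 library each) or against the Rosa26 locus, a control for cutting used in 2 libraries. Each of the 7 groups holds 2 libraries, so the spread of a knockout group includes the difference between its guides, and the cultures behind the libraries are not described. Messenger RNA was selected by its polyA tail. Separately, none of the 13 protein genes of mitochondrial DNA is listed in any of the 4 tables, and why they are absent was not tested. The nuclear genes are therefore described here without their mitochondrial partners.

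Read totals ran from 19065348 to 24275290 per library in RN2c, while RN2 libraries held 13961461 to 14943682 and MOLM-13 libraries 16859820 to 22609627. The targeted genes fell: Sik3 had 1939 and 1878 with sgRosa26 and 1219 and 1169 with sgSik3, and Mef2c had 8395 and 8369 with sgRosa26 and 3892 and 4022 with sgMef2c. The knockouts were thus read in populations that kept part of the target's messenger RNA. All 8 markers of myeloid leukemia cells were detected in all mouse tables. B, T, endothelial, fibroblast and epithelial markers (3 genes each) summed to at most 11.5 per mouse library and none of them reached the test. Erythroid markers (4 genes) summed to between 16.8 and 38.8 per mouse library, with 1 or 2 genes tested per table and none called. In MOLM-13 all 8 myeloid markers were detected too. Epithelial markers summed to between 185 and 232 per library and erythroid markers to between 377 and 450. B, T and fibroblast markers summed to at most 41.9, with 1 gene of each tested, and no marker was called. The 2 MOLM-13 replicates stand apart for the respiratory chain genes, and the 2 sgSik3 libraries do so by less, as given with those comparisons.

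Among the members, the largest fall and the largest rise in the sgSik3 comparison were Ndufaf4 and Ndufv3. Their promoters are shown because they are the ends of the range in both knockouts; the 250 bases before the RefSeq start (GRCm38.p6, plus strand, chr4:24897833-24898082 for Ndufaf4 and chr17:31519865-31520114 for Ndufv3) read 5′ to 3′, with matches to the NRF1 motif core in capitals.
Ndufaf4 promoter: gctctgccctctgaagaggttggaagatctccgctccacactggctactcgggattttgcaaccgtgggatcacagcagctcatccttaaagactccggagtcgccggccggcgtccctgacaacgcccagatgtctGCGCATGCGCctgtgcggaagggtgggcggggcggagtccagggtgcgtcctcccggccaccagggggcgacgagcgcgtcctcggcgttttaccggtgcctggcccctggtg
Ndufv3 promoter: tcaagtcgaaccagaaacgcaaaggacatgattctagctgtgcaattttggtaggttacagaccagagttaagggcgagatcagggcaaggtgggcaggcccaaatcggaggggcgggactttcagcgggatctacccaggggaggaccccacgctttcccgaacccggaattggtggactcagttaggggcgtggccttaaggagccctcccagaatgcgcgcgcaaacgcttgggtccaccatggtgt
The capitals in Ndufaf4 are overlapping matches on both strands, between bases -113 and -104 from the start, and the Ndufv3 stretch holds no match to any of the 5 motifs searched. RefSeq promoters of 300 bases (250 before and 50 after the start) were found for 73 of the 93 mouse symbols, in 78 windows, and were searched on both strands. The NRF1 core, GCATGCGC, was in 15.4% of the members' windows and 2.71% of all 32851 windows. The GABP core, CCGGAAG, was in 21.8% against 8.86%, and the YY1 core, AAGATGGC, in 11.5% against 2.75%. The CREB site TGACGTCA was in 5.13% against 1.79%, and the E-box CACGTG bound by MYC in 7.69% against 7.15%. Of 39 windows of members called lower with sgSik3, 6 held the NRF1 core and 5 the GABP core. Of 32 windows of tested members that were not called, 6 held the NRF1 core and 11 the GABP core.

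With sgSik3, genes of every complex were lower than with sgRosa26. Of the 87 members tested, 45 were called lower and 4 higher (limma, adjusted p under 0.05), and over all 10934 genes tested 23.9% were called lower and 23.9% higher. The median log2 fold change of the members was -0.14, that of all genes -0.001. Single changes were small: apart from Ndufaf4, the called members changed by between -24.3% and 29.8%. The members are more abundant than the typical tested gene (median level 1637 against 869) and have smaller errors (median SE 0.05 against 0.06), so small changes pass more easily among them. Together they took 1.12% and 1.11% of all reads with sgRosa26 and 0.969% and 0.951% with sgSik3. The sgSik3 libraries also differed from each other: 71 of 87 members were higher in replicate 1 (guide e1), as were 5781 of 10934 genes. The median difference, replicate 2 minus replicate 1, was -0.043 for the members and -0.005 for all genes. Between the sgRosa26 libraries 51 of 87 members were higher in replicate 1, with a median difference of -0.010. In a bulk measurement, fewer cells of one kind and less RNA per cell cannot be told apart.

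**Figure D1:**
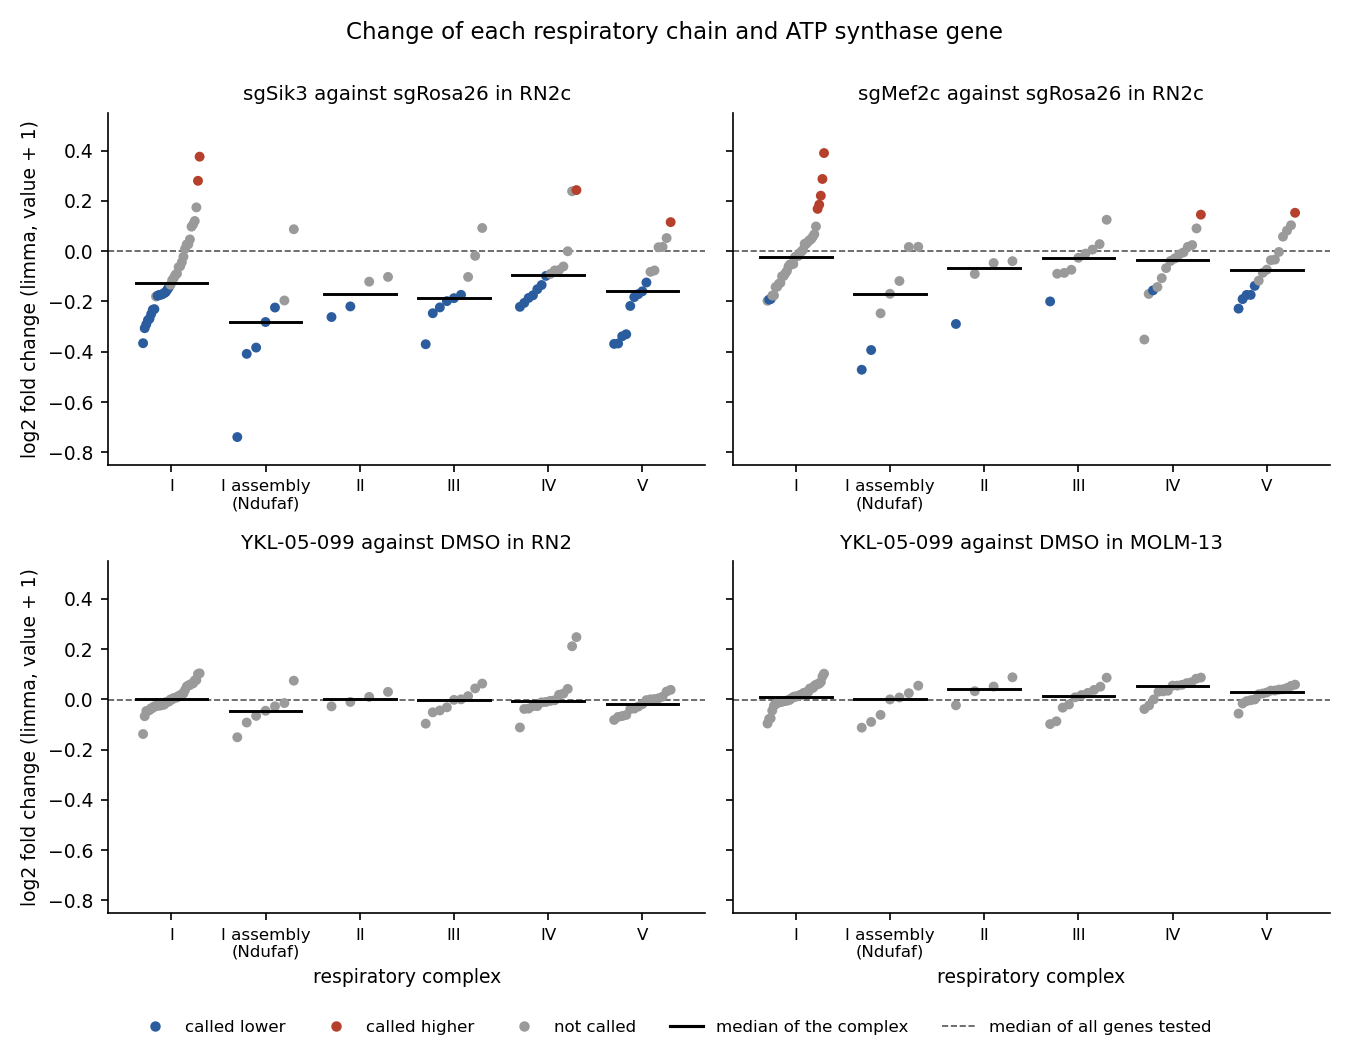
Log2 fold change (limma on value + 1) of each tested member, by complex, in the 4 comparisons; points are genes, black bars the median of the complex, and the dashed line the median of all genes tested. Atp5s and Atp5sl are not drawn. With sgSik3 the median of every complex lies below that of all genes (-0.28 for the assembly factors to -0.09 for complex IV), with sgMef2c the medians lie nearer to it, and the inhibitor comparisons hold no called gene.

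The median of each complex was below 0. Complex III had 6 of 9 members lower and none higher (median -0.19), complex V 9 of 15 lower and 1 higher (-0.16), complex II 2 of 4 lower (-0.17), complex I 16 of 36 lower and 2 higher (-0.12) and complex IV 7 of 14 lower and 1 higher (-0.09). The Ndufaf assembly factors had 5 of 7 lower and none higher (-0.28). In reads, complex V had the largest drop: its genes took 0.470% and 0.463% of all reads with sgRosa26 and 0.3820% and 0.3801% with sgSik3, largely Atp5a1 and Atp5b. Complex IV went from 0.192% in both control libraries to 0.177% and 0.173%. The differences between complexes were not tested. Leaving out sgSik3 replicate 2 (guide e3) left 23 members called lower, leaving out sgSik3 replicate 1 (guide e1) left 30, and DESeq2 called 26. In the same fits 16.3%, 16.4% and 12.1% of all genes were called lower. Whichever library was left out, 20 of the 45 falls kept their call, among them Atp5a1, Atp5b, Atp5g1, Atp5g3, Cyc1, Sdha, Sdhb, Ndufs1 and Ndufaf4, as did 3 of the 4 rises, Ndufv3, Ndufb3 and Cox7a2l.

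**Figure D2:**
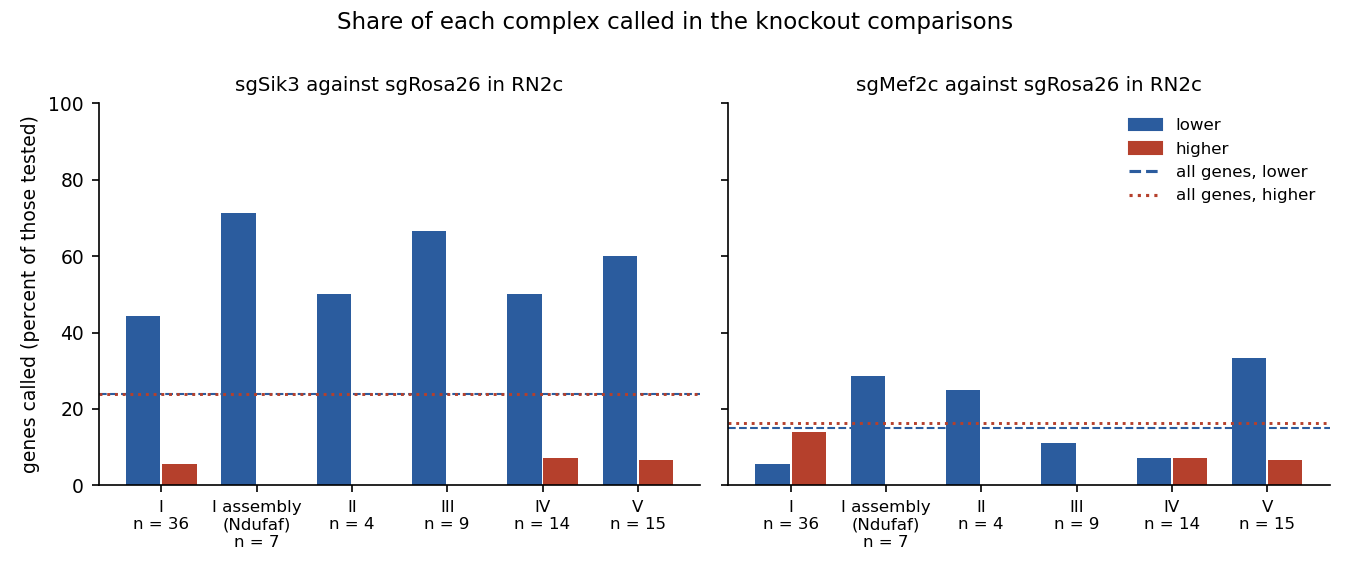
Percent of the tested members of each complex called lower (blue) or higher (red) in the knockout comparisons; dashed and dotted lines give the same for all genes tested and n is the number of members tested. With sgSik3 the lower share is 44.4% to 71.4% in every class, above the 23.9% of all genes, and with sgMef2c it is above the 15.1% of all genes in complex II, complex V and the assembly factors.

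In complex V the 9 called falls were in 4 genes of the catalytic head, 2 of the ring, 2 of the peripheral stalk and 1 small membrane subunit, Atp5j2 (-0.12, adjusted p = 0.032). Atp5b encodes the catalytic beta subunit (chromosome 10, 128083273 to 128090391 on GRCm38, plus strand). It had 33305 and 33036 with sgRosa26 and 26303 and 26165 with sgSik3, a log2 fold change of -0.34 (SE 0.03, adjusted p = 3.1e-05). Atp5a1, the alpha subunit (chromosome 18, 77773729 to 77782869, plus strand), had 24165 and 24025 with sgRosa26 and 18722 and 18640 with sgSik3 (-0.37, SE 0.03, adjusted p = 1.7e-05). These libraries did not overlap, and the spread within each group was far smaller than the difference. The gamma subunit gene Atp5c1 (-0.22) and the delta subunit gene Atp5d (-0.18) were also called lower, while Atp5e, the epsilon subunit, had a log2 fold change of 0.05 and overlapping libraries.

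The membrane ring of c subunits is encoded by 3 genes whose mature proteins are the same, and these genes parted. Atp5g1 (chromosome 11, 96068852 to 96075670, minus strand) had 1611 and 1546 with sgRosa26 and 1209 and 1236 with sgSik3, a log2 fold change of -0.37 (SE 0.05, adjusted p = 0.00019). Atp5g3 (chromosome 2, 73908447 to 73911326, minus strand) had 5213 and 5047 with sgRosa26 and 4063 and 4096 with sgSik3 (-0.33, SE 0.03, adjusted p = 6.2e-05). Atp5g2 (chromosome 15, 102662864 to 102672352, minus strand) had 1471 and 1355 with sgRosa26 and 1419 and 1437 with sgSik3, inside the range of its controls (0.02, SE 0.05, adjusted p = 0.83). Atp5g3 was the highest of them in these values and also per kilobase of exon, at 2390 and 2314 in the controls. The order of the other genes depends on the length used. Per kilobase Atp5g2 had 878.3 and 809.1 and Atp5g1 328.1 and 314.7, while the undivided values were higher for Atp5g1. The length counts all annotated exons of a gene together, 4912 bases for Atp5g1 and 1675 for Atp5g2, and transcripts can be shorter. Such small subunit genes have processed pseudogene copies in the genome, and how reads shared between copies were counted is not given in the sources used here. Of the peripheral stalk, Atp5o (-0.17) and Atp5f1 (-0.16) were called lower and Atp5h higher, with 2562 and 2470 in the controls and 2758 and 2694 with sgSik3 (0.12, SE 0.04, adjusted p = 0.033).

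In complex III both redox subunits and both large core proteins were called lower. Cyc1, the cytochrome c1 that hands electrons to cytochrome c (chromosome 15, 76343523 to 76346260, plus strand), had 3546 and 3489 with sgRosa26 and 2746 and 2698 with sgSik3. Its log2 fold change was -0.37 (SE 0.04, adjusted p = 3.9e-05), equal to that of Atp5a1. Uqcrfs1, the Rieske iron-sulfur protein, had 2316 and 2353 with sgRosa26 and 2086 and 2053 with sgSik3 (-0.17, SE 0.04, adjusted p = 0.0048). The core proteins Uqcrc2 (-0.25) and Uqcrc1 (-0.20) and the small subunits Uqcrq (-0.22) and Uqcr11 (-0.19) were called lower too. Uqcrh and Uqcrb had libraries that overlapped their controls.

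In complex II both catalytic subunits passed the test. Sdhb, the iron-sulfur subunit (chromosome 4, 140961203 to 140979193, plus strand), had 1944 and 1875 with sgRosa26 and 1609 and 1575 with sgSik3 (-0.26, SE 0.04, adjusted p = 0.0009). Sdha, the flavoprotein that oxidizes succinate, had 7191 and 7331 with sgRosa26 and 6249 and 6222 with sgSik3 (-0.22, SE 0.03, adjusted p = 0.00044). The anchors Sdhc (-0.12, SE 0.05, adjusted p = 0.067) and Sdhd (-0.10, SE 0.04, adjusted p = 0.059) were lower in both sgSik3 libraries than in both controls without passing. Sdhd did pass in edgeR (adjusted p = 0.048) and in limma after quantile normalization (adjusted p = 0.025). In the other fits that kept all libraries, DESeq2 among them, Sdhd did not pass, and Sdhc passed in none. Sdhd was at -0.13 without sgRosa26 replicate 1, and Sdhc at -0.16 without sgRosa26 replicate 2. Whether the anchors fell less than the catalytic subunits was not tested.

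Complex I had the widest range. Of its 7 core subunits encoded in the nucleus, which hold the flavin and the iron-sulfur clusters among them, 4 were called lower and none higher, and all 7 had negative log2 fold changes. Ndufs1, the largest of them, had 3175 and 3142 with sgRosa26 and 2629 and 2536 with sgSik3 (-0.29, SE 0.04, adjusted p = 0.00022). Ndufv1, which binds NADH, had 1602 and 1620 with sgRosa26 and 1455 and 1395 with sgSik3 (-0.18, SE 0.04, adjusted p = 0.0092). It did not pass in DESeq2 (adjusted p = 0.082) and was at -0.15 without sgSik3 replicate 2 (guide e3). Among the 29 accessory subunits, which surround the core, 12 were called lower and 2 higher. Ndufa12 went from 712.1 and 642.2 to 528.3 and 520.7 (-0.37, SE 0.07, adjusted p = 0.0025).

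Both accessory subunits that rose stood clear of their controls. Ndufv3, a small subunit of the NADH-binding module (chromosome 17, 31520115 to 31531331, plus strand), had 1132.6 and 1171.8 with sgRosa26 and 1526 and 1466 with sgSik3, a log2 fold change of 0.38 (SE 0.05, adjusted p = 0.0002). Ndufb3, a subunit of the membrane arm (chromosome 1, 58586384 to 58595964, plus strand), had 1211 and 1207 with sgRosa26 and 1489 and 1448 with sgSik3 (0.28, SE 0.04, adjusted p = 0.00083). Subunits of one complex thus moved in opposite directions within the same libraries.

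The assembly factors of complex I held the largest fall. Ndufaf4, which acts early in building the complex (chromosome 4, 24898083 to 24905001, plus strand), had 817.4 and 832.7 with sgRosa26 and 485.5 and 502.2 with sgSik3. This is a fall of 40.1% (log2 fold change -0.74, SE 0.06, adjusted p = 1.7e-05). Ndufaf6 (-0.41), Ndufaf5 (-0.38), Ndufaf1 (-0.28) and Ndufaf7 (-0.22) were called lower as well. Ndufaf6 (adjusted p = 0.13) and Ndufaf5 (adjusted p = 0.1) did not pass in DESeq2. Without sgSik3 replicate 1 (guide e1) Ndufaf6 was at -0.26 (adjusted p = 0.19) and Ndufaf5 at -0.33 (adjusted p = 0.08), and neither passed.

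Complex IV had the median nearest to 0 (-0.09) among genes with a mean of 10 or more. With a minimum mean of 50 it was -0.12, near the -0.12 of complex I at a mean of 10 or more. Cox4i1, the ubiquitous subunit 4, had 7272 and 7113 with sgRosa26 and 6461 and 6279 with sgSik3 (-0.18, SE 0.03, adjusted p = 0.0022), and Cox5a (-0.15), Cox7b (-0.21) and Ndufa4 (-0.19) were also called lower. Ndufa4 was at -0.29 without sgRosa26 replicate 1 and at -0.09 without sgRosa26 replicate 2, where it was not called (adjusted p = 0.097), nor was it without either sgSik3 library. Cox7a2l, a protein that joins complexes III and IV in supercomplexes, went the other way, from 1940 and 2019 to 2415 and 2273 (0.24, SE 0.04, adjusted p = 0.0019). The ubiquitous Cox6b1 was called lower, at 2998 and 2977 against 2771 and 2811 (-0.10, SE 0.035, adjusted p = 0.045). It did not pass in DESeq2 (adjusted p = 0.25), nor in limma without a filter or without the mean-variance trend. The ubiquitous Cox6a1 (-0.06), Cox8a (-0.09, adjusted p = 0.072) and Cox7a2 (listed at 3085 and 2988 against 3094 and 2978) were not called. Cox8a did pass after quantile normalization (limma, adjusted p = 0.036). The tissue-restricted isoforms were low: Cox6a2 had between 15.6 and 31.7 in the 4 libraries and Cox7a1 between 31.9 and 41.8, while Cox4i2, Cox6b2, Cox8b and the hypoxia-linked Ndufa4l2 were at 5.98 or less. Cox7b2 and Cox8c were listed at 0 in all RN2c libraries, where a count of 0 allows up to 3 reads per library. The 6 untested members were all of complex IV.

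**Figure D3:**
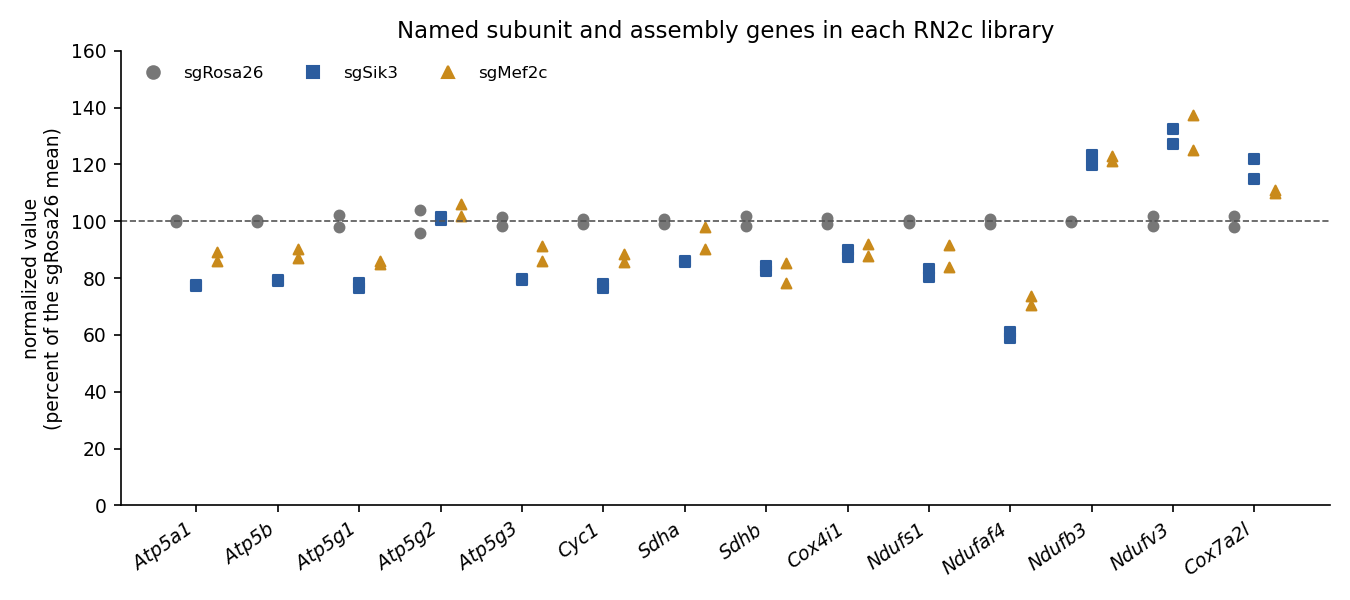
Normalized value of 14 named members in each RN2c library, as percent of the mean of the 2 sgRosa26 libraries in the same table; grey circles are sgRosa26, blue squares sgSik3 and orange triangles sgMef2c. Ndufaf4 lies lowest in both knockouts, Ndufv3, Ndufb3 and Cox7a2l lie above their controls, and Atp5g2 lies near 100 percent in every library.

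Other mitochondrial genes, grouped in lists by function, were read in the same fit, where 23.9% of all genes were called lower and 23.9% higher. All 13 genes of the TCA cycle, which feeds NADH and succinate to the chain, were called lower with sgSik3 (median -0.21), led by Idh3a, a subunit of isocitrate dehydrogenase (3849 and 3749 against 2724 and 2686; -0.49, SE 0.04). Of 12 electron carriers and exchangers, 8 were lower and 2 higher (median -0.23). Slc25a4, an ADP/ATP exchanger of the inner membrane, was the lowest by p (3002 and 3022 against 1999 and 2073; -0.56), and Etfb, which carries electrons from fatty acid oxidation, rose (0.22). Of 12 genes of coenzyme Q synthesis 5 were lower and none higher (-0.23), and of 36 tested assembly factors outside the member set 11 were lower and 1 higher (-0.13), among them Cox10, which makes heme for complex IV (-0.49). Of 16 tested regulators of mitochondrial gene expression 7 were lower and 2 higher (-0.23). Myc, which is known to drive growth and mitochondrial genes, went from 5075 and 5032 to 2976 and 3119 (-0.73, SE 0.04), Pprc1, a coactivator of NRF1, fell (-0.49), and Polg, the mitochondrial DNA polymerase, rose (0.35).

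Markers of neutrophil maturation moved in these same libraries. All 10 markers were called higher with sgSik3 (median log2 fold change 2.36), and their summed level ran from 21721 to 23741 in the sgRosa26 libraries and from 111890 to 122010 in the sgSik3 libraries. S100a8, a calcium-binding protein of neutrophils, had 9628 and 9870 with sgRosa26 and 51575 and 47633 with sgSik3. Of the 8 myeloid leukemia markers 6 were higher and 1 lower. The part of these changes in the level of the respiratory chain genes was not tested.

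With sgMef2c the share of members called lower was near that of all genes, and single members moved both ways. Of 87 members tested, 12 were called lower and 7 higher. Over all 10956 genes 15.1% were called lower and 16.3% higher. The 13.8% of members called lower is thus no excess, and the 8.05% called higher is below the share of all genes. Log2 fold changes were negative, mostly without passing, for 59 of 87 members and for 5476 of the 10956 genes. The median was -0.05 for the members and 0.0002 for all genes. The members took 1.05% and 1.01% of all reads with sgMef2c, against 1.12% and 1.11% with sgRosa26. Complex V had 5 of 15 lower and 1 higher (median -0.07), complex I 2 of 36 lower and 5 higher (-0.02), and complexes II, III and IV had 1 lower each.

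The largest of the falls called with sgMef2c was again in an assembly factor. Ndufaf4 had 859.3 and 873.0 with sgRosa26 and 638.4 and 610.7 with sgMef2c, a fall of 27.9% (-0.47, SE 0.06, adjusted p = 0.0019). Sdhb had 2044 and 1966 with sgRosa26 and 1710 and 1572 with sgMef2c (-0.29, SE 0.06, adjusted p = 0.0086). Cyc1 had 3728 and 3658 with sgRosa26 and 3263 and 3169 with sgMef2c (-0.20, SE 0.04, adjusted p = 0.01). None of these groups overlapped.

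In the ATP synthase, Atp5a1 had 25401 and 25188 with sgRosa26 and 22581 and 21756 with sgMef2c (-0.19, SE 0.04, adjusted p = 0.013), and Atp5b 35009 and 34636 against 31451 and 30299 (-0.17, SE 0.04, adjusted p = 0.02). Of the ring genes, Atp5g1 (1694 and 1621 against 1423 and 1406; -0.23) and Atp5g3 (5480 and 5292 against 4924 and 4628; -0.17) were called lower and Atp5g2 was not (1547 and 1421 against 1511 and 1576; 0.06, adjusted p = 0.48). Cox4i1 (-0.16), Ndufs1 (-0.19), Ndufb6 (-0.19), Ndufaf6 (-0.39) and Atp5c1 (-0.14) complete the called falls. Without sgMef2c replicate 2 Ndufs1 was at -0.13 and not called (adjusted p = 0.13). Exons of 32 of the 92 members placed on the mouse annotation overlap those of another gene, by at least 20% of their length for Ndufaf2, Ndufb6 and Ndufa13. Ndufb6 shares 257 exon bases with Smim27 on the opposite strand, and the counting is not stated to use strand, so their reads cannot be told apart.

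The rises with sgMef2c were mostly accessory subunits of complex I. Ndufv3 had 1191 and 1229 with sgRosa26 and 1512 and 1663 with sgMef2c (0.39, SE 0.06, adjusted p = 0.0037), and Ndufb3 had 1273 and 1265 against 1538 and 1560 (0.29, SE 0.05, adjusted p = 0.0044). Ndufb11 (0.22), Ndufb7 (0.19) and Ndufa6 (0.17) also rose, as did Atp5h (0.15) and Cox7a2l (0.15). Without any 1 of the libraries sgRosa26 replicate 1, sgRosa26 replicate 2 or sgMef2c replicate 2, at most 4 members were called lower and at most 3 higher, where 8.05% to 9.38% of all genes were lower, and only Ndufaf4, Sdhb, Ndufb3 and Ndufv3 kept their calls whichever library was left out. The controls of this comparison are the same libraries as those of the sgSik3 comparison, so the likeness of the 2 sets of values is not evidence of its own.

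In the other lists, sgMef2c left 6 of 13 TCA cycle genes lower (median -0.13) and 4 of 12 carriers and exchangers lower and 2 higher (-0.11). Of 12 coenzyme Q genes 1 was lower and 1 higher (-0.11), of 36 assembly factors 6 were lower (-0.03), and of 16 regulators 3 were lower and 1 higher (-0.09). Over all genes 15.1% were lower and 16.3% higher, so the lower counts of coenzyme Q genes, assembly factors and regulators are no clear excess. Myc had 5335 and 5276 with sgRosa26 and 4256 and 3988 with sgMef2c (-0.36, SE 0.04). Neutrophil maturation markers were higher for 9 of 10 genes (median 2.51), with a summed level from 22832 to 24891 in the controls and from 104670 to 207430 with sgMef2c. Their part in the members' values was not tested.

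Because both knockouts share their controls, they were also set against each other directly, with edgeR on reads recovered from all 6 RN2c libraries. Of the 87 members, 7 were higher with sgMef2c than with sgSik3 and none was lower, where over 10951 genes 4.18% were higher and 5.37% lower. At an unadjusted p under 0.05 edgeR had 31 members higher and 1 lower, 36.8% of members against 26.2% of all genes. After adjustment DESeq2 called 3 members higher and 0 lower, where 1.47% of all genes were higher and 2.65% lower. The median difference was 0.09 for the members and 0.01 for all genes. The difference was positive, mostly without passing, for 78 of 87 members and for 5823 of the 10951 genes. The 7 were Atp5a1 (0.18, SE 0.04, adjusted p = 0.019), Atp5b (0.16), Atp5g3 (0.16), Cyc1 (0.17), Uqcrc1 (0.19), Uqcrc2 (0.16) and Ndufaf4 (0.27, SE 0.06, adjusted p = 0.029). They include 3 of 9 members of complex III, 3 of 15 of complex V and 1 of 7 assembly factors, and none of complexes I, II and IV. Sdhb (-0.03, SE 0.05) and Ndufv3 (0.01, SE 0.05), which changed in both knockouts, showed no difference that passed. This count rests on single libraries: without sgSik3 replicate 1 (guide e1), sgSik3 replicate 2 (guide e3) or sgMef2c replicate 1 (guide 1) it was 0, and without sgMef2c replicate 2 (guide 2) it was 9. The calls over all genes dropped too, to 0.0823%, 0.119% and 2.34% higher in those 3 fits in the same order. Without sgMef2c replicate 1 the difference of Atp5g3 was 0.10.

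**Figure D4:**
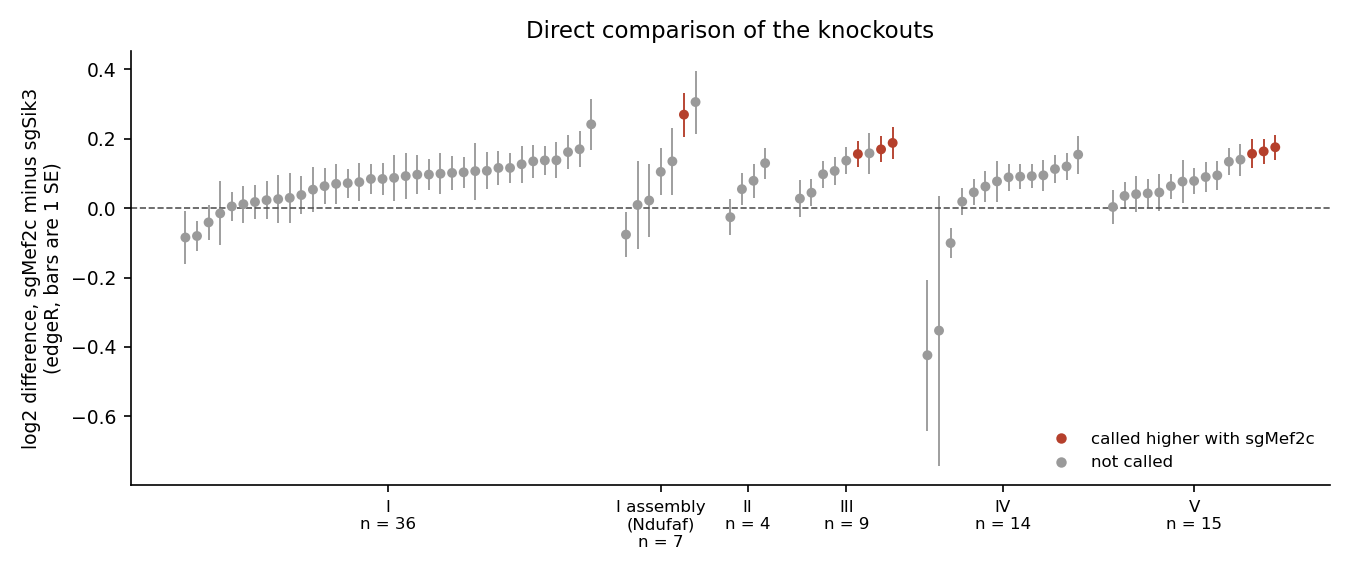
Log2 difference of each tested member between the knockouts (sgMef2c minus sgSik3, edgeR on recovered reads of 6 RN2c libraries), ordered within each complex; bars are 1 SE, and n is the number of members. Most points lie above 0, and the 7 called genes (red) are in complexes III and V and among the assembly factors; the 2 points far below 0 in complex IV are the low-count Cox6a2 and Cox7a1.

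After 2 hours of YKL-05-099, no member was called in either cell line in a fit without replicate numbers. In RN2, 0 of 87 members passed in limma, edgeR or DESeq2. Over all 10732 genes limma called 0.28% lower and 0.0373% higher, and DESeq2 called 31 of 15889 genes. At an unadjusted p under 0.05, 1 member, Cox4i1, was lower (1.15% of members), against 7.32% of all genes. Cox4i1 had 5359 and 5473 with DMSO and 5056 and 4967 with YKL-05-099 (-0.11, SE 0.04, adjusted p = 0.48). With the replicate number as a block in limma it was called lower (adjusted p = 0.0093), in a fit that called 499 genes in all against 34 without the block. Log2 fold changes ran from -0.15 to 0.25 with a median of -0.009, and the median half-width of a member's 95% interval was 0.12. The members' median change with sgSik3, -0.14, is close to that half-width, which is for a single gene and not for the set. By library, the members' median deviation from the DMSO mean was -0.0074 and 0.0074 with DMSO and -0.015 and 0.0067 with YKL-05-099.

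The genes that led the knockout comparisons had the following values in RN2. Atp5b had 26410 and 26314 with DMSO and 26372 and 26389 with YKL-05-099, and Atp5a1 19981 and 20195 against 20046 and 20423. Cyc1 had 2581 and 2623 with DMSO and 2708 and 2655 with YKL-05-099 (0.04, SE 0.04), and Sdhb had 1524 and 1587 against 1598 and 1577. Ndufaf4 was lower in both treated libraries, at 560.8 and 544.2 against 618.1 and 609.0, without passing (-0.15, SE 0.07, adjusted p = 0.69). In the same libraries Myc fell, from 3450 and 2908 to 2318 and 2026 (-0.55, SE 0.08, adjusted p = 0.026), as the only called gene among the 5 lists of mitochondrial genes found in the tables. No neutrophil maturation or myeloid marker was called.

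In MOLM-13, 0 of 88 members passed in limma, edgeR or DESeq2. Over all 11361 genes limma and edgeR called 0% lower and 0% higher, while DESeq2 called 7 of 14913 genes. At an unadjusted p under 0.05 no member stood, against 1.27% of all genes. The members differed between replicates within both groups. Replicate 2 had the higher value for 84 of 88 members with DMSO and for 71 of 88 with YKL-05-099, against 50.9% and 50.4% of all genes. The median difference between replicates was 0.16 and 0.10 on the log2 scale, and the members took 1.53% and 1.68% of reads in DMSO replicates 1 and 2 and 1.57% and 1.67% in the YKL-05-099 replicates. The median log2 fold change of the members was 0.02, and leaving out 1 library at a time it lay between -0.07 and 0.09.

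**Figure D5:**
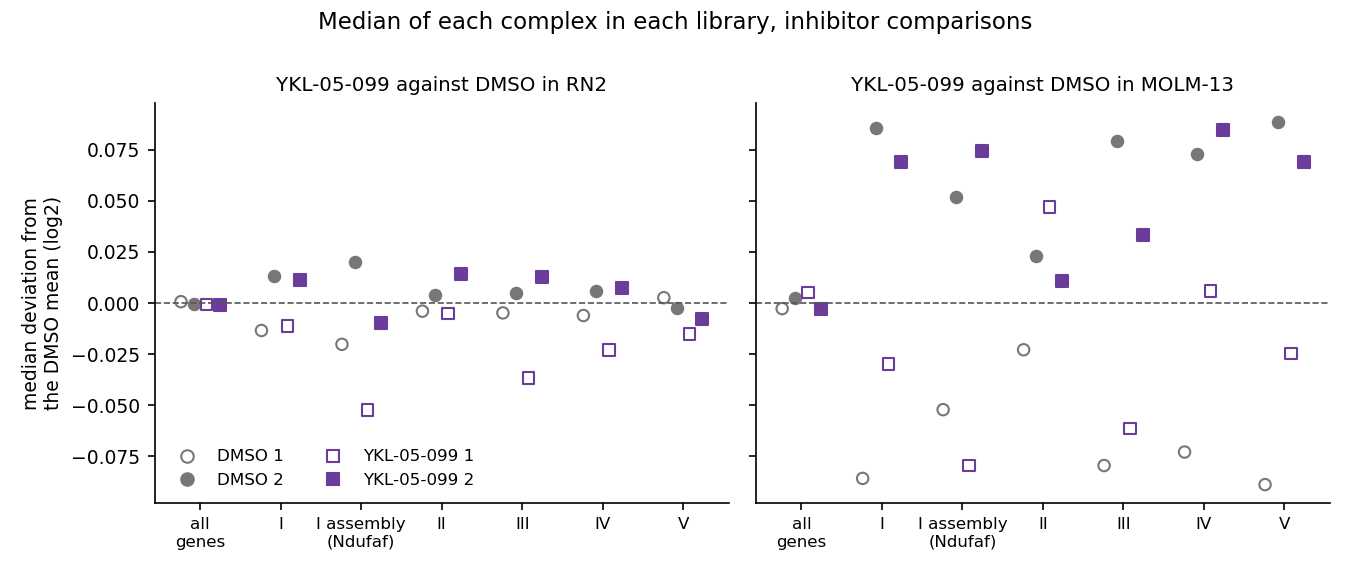
Median deviation of each complex from the mean of the DMSO libraries (log2), by library, in the inhibitor comparisons; circles are DMSO, squares YKL-05-099, open symbols replicate 1 and filled symbols replicate 2. In MOLM-13 the filled symbols lie above the open ones for complexes I, III, IV and V and the assembly factors, while all genes stay near 0.

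For ATP5A1, the MOLM-13 values were 22061 and 22463 with DMSO and 23361 and 22266 with YKL-05-099, and the groups overlapped. The size of the replicate split varied: ATP5G1 had 1825 and 2339 with DMSO and 1859 and 2295 with YKL-05-099, and COX6B1 had 3816 and 4688 against 4139 and 4683. The replicates lay closer in SDHA, at 4663 and 4665 against 4645 and 4531, and UQCRFS1, at 4128 and 4144 against 4265 and 4156. CYC1 had 15034 and 16606 with DMSO and 13934 and 15872 with YKL-05-099 (-0.09, SE 0.10). The median half-width of a member's 95% interval was 0.25, so a change of the size of the members' median with sgSik3 was not detectable in a single gene here. Among the isoforms, COX4I2, COX6A2, COX7B2 and COX8C were listed at 0 in all 4 libraries, and NDUFA4L2, at 47.5 to 67.8, was tested, unlike in mouse.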

How the data were processed

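The tools HISAT2, featureCounts and DESeq2 and the builds hg19 and mm10 are named per the submitters' processing notes; their versions, the annotation and the strand setting were not given in the sources used here. Each comparison has 1 table (4 in all), normalized separately by the authors and deposited as a signal, the reads of a gene over a size factor for the library. Dividing by the value of 1 read gave whole reads (tolerance 1e-06) for 100% of the values, so read totals were recovered. All columns were mapped to a sample (0 were not), and the sgRosa26 reads of both RN2c tables are the same. The labels' kit does not state a strand protocol.

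Genes whose values averaged 10 or more were tested with limma 3.58.1 (trend, two-sided, R 4.3.3) on log2(value + 1), a scale that understates the change of low genes, over the whole table, with Benjamini-Hochberg adjusted p under 0.05 as the threshold. The direct test used edgeR 4.0.16 on recovered reads, edgeR was an alternative in the other comparisons, and DESeq2 1.42.0 was one in all. Other pseudocounts, filters, normalizations, a replicate block and leaving out each library were also tried. Scripts were tested on simulated data. P-values measure the spread between libraries, which may be technical. Intervals and floors cover counting error or this spread only.

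Members and lists were chosen with earlier results of these data known, and the roles of subunits were grouped after values were seen. Named were the 2 members of lowest p per complex, the 3 largest called rises and falls per comparison, fixed subunits and isoform pairs, and up to 3 genes per list; Ndufa6, Ndufb7 and others given by fold change only complete a count and were chosen after their values were seen. Mouse positions are from GENCODE M21 (GRCm38, the same assembly as mm10) and promoters from RefSeq (GRCm38.p6); human positions are not used here.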

Additional observations from a re-analysis of the deposited data

Results flagged for a closer look

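The effects of the knockouts on 7 members differed by the direct edgeR test. The log2 difference, sgMef2c minus sgSik3, was 0.18 for Atp5a1, 0.17 for Cyc1, 0.16 for Atp5b, 0.27 for Ndufaf4, 0.16 for Uqcrc2, 0.19 for Uqcrc1 and 0.16 for Atp5g3, each called lower with sgSik3. DESeq2 called Atp5a1, Atp5b and Uqcrc1 of these. None of the 7 kept its call whichever of the 6 libraries was left out. Groups of 2 libraries are too small for a check of single outlying values.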

How the results depend on the processing

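The members called with sgSik3 were 45 lower and 4 higher. These counts were within 1.5 times of this under edgeR, a pseudocount of 5, no filter, a minimum mean of 50 and quantile normalization. The lower count was 26 in DESeq2 and 29 without a mean-variance trend. There 12.1% and 17.8% of all genes were lower, against 23.9% in the main fit. Leaving out 1 library gave 23 to 46 lower. With sgMef2c (12 lower, 7 higher) the counts were 2 lower and 2 higher without the trend, 3 higher in DESeq2, 4 higher after quantile normalization, and 4 to 11 lower and 2 to 5 higher with 1 library left out. The direct test (7 higher, where 4.18% of all genes were) gave 3 in DESeq2, where 1.47% of all genes were higher. Assigning complexes by the start of the symbol alone, which adds the assembly factors to complex I, gave 4 in place of 2 members of complex I lower with sgMef2c. No named member reversed its sign while called in either fit. The cause of these shifts was not tested.

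The median of complex IV with sgSik3 (-0.09) was -0.12 in DESeq2, without a filter, with a minimum mean of 50 and after quantile normalization, where all but the quantile fit hold more or fewer of the low isoforms, and that of complex V (-0.16) was -0.19 after quantile normalization. With sgMef2c, complex IV (-0.034) was at -0.021 with a minimum mean of 50 and -0.051 after quantile normalization. In RN2, quantile normalization gave 0.019 for complex II and 0 for complex V. With 1 library left out, the medians of the complexes that moved by more than the spread between libraries ran in sgSik3 from -0.14 to -0.11 for complex I, -0.22 to -0.16 for complex III, -0.11 to -0.090 for complex IV and -0.16 to -0.14 for complex V. They ran in sgMef2c from -0.055 to -0.015 for complex I, -0.12 to -0.029 for complex II, -0.0637 to 0.0046 for complex III, -0.041 to -0.020 for complex IV and -0.10 to -0.036 for complex V. They ran in RN2 from -0.0083 to 0.014 for complex II, -0.037 to 0.013 for complex III and -0.034 to 0.0027 for complex V. They ran in MOLM-13 from 0.011 to 0.064 for complex II, -0.087 to 0.068 for complex III and -0.041 to 0.12 for complex IV. They ran in the direct test from 0.056 to 0.12 for complex I, 0.024 to 0.11 for complex II, 0.098 to 0.16 for complex III, 0.053 to 0.091 for complex IV and 0.059 to 0.12 for complex V. A median that crosses 0 here belongs to a comparison in which no member was called, or to complex III with sgMef2c, where 1 of 9 was.

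Where groups share replicate numbers, a replicate block was fitted. It gave 14 members lower and 7 higher with sgMef2c, where 17.4% of all genes were lower and 18.3% higher. In RN2 it gave 1 member lower (Cox4i1, limma adjusted p = 0.0093), and in MOLM-13 0. With the block 499 and 290 genes of the whole RN2 and MOLM-13 tables were called, against 34 and 0 without it. The deviations of same-numbered libraries correlated at 0.051, 0.22 and 0.53 with sgMef2c, in RN2 and in MOLM-13. With 2 numbers per comparison these are not taken as pairs. No block was fitted for sgSik3, whose libraries are named by guides e1 and e3. The sgMef2c numbers also name its guides, so that block sets each guide beside an sgRosa26 replicate of the same number. Read totals were higher in MOLM-13 than in RN2, while the median SE of a member was 0.11 against 0.06.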

Other observations

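The share of reads on the members differed between the mouse and the human line, in tables that were counted and normalized separately and hold different gene sets. With DMSO the members took 1.20% and 1.21% of reads in RN2 and 1.53% and 1.68% in MOLM-13. Complex III took 0.125% and 0.129% in RN2 and 0.271% and 0.299% in MOLM-13, where CYC1 alone had 15034 and 16606 normalized reads and UQCRB 9976 and 11202. Complex V took 0.518% and 0.521% in RN2 and 0.503% and 0.544% in MOLM-13, and complex II 0.0831% and 0.0834% against 0.0608% and 0.0623%. The difference between species was not tested.

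Atp5s and Atp5sl, which were placed in no complex, were not called in any comparison. Atp5s had 180.6 and 193.5 with sgRosa26 and 225.7 and 214.0 with sgSik3, and limma gave a log2 fold change of 0.23 (SE 0.10, adjusted p = 0.097). With sgMef2c its log2 fold change was 0.29 (SE 0.10, adjusted p = 0.066), and the groups did not overlap in either comparison.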
